A study of Rattus norvegicus with 10 samples.

Results

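The sarcomeric myosin heavy chain genes, Myh1, Myh2, Myh3, Myh4, Myh6, Myh7, Myh7b and Myh8, were followed in RNA sequencing of neonatal rat cardiomyocytes that overexpressed either of 2 forms of YAP. They are 8 of the 39784 gene names in the deposited tables and each name stands on 1 entry. The genes were chosen from the difference between the 2 forms in these same libraries, so their levels are given as a description, with no test. YAP is a transcriptional coactivator that reaches DNA through TEAD factors. YAP5SA is an activated form with inhibitory serines changed to alanine, and YAP5SA-S94A carries a further change that disrupts TEAD binding. The comparison addresses which expression differences go with the ability of YAP to bind TEAD. The YAP5SA group held 2 libraries of wild type cells labelled with the treatment Ad-Xon-YAP5SA, and the YAP5SA-S94A group 2 libraries of wild type cells labelled Ad-Xon-YAP5SA-S94A. The labels give the cells as cardiomyocytes of the newborn heart, cultured in serum. The labels used here give no dose or time. The other 6 samples of the series, CUT&RUN, were not analysed here. No RNA library of uninfected or GFP cells was used here, so a difference does not show which form departed from the untreated state. The labels call the libraries biological replicates without saying that they came from separate cultures, and p-values measure only the spread between these libraries.

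A myosin heavy chain forms the motor head and the rod of the thick filament of the sarcomere. The isoform sets how fast the sarcomere shortens and how much ATP the motor uses. In the rat, Myh6 (alpha) and Myh7 (beta) are the cardiac isoforms, with beta prominent before birth and alpha in the adult ventricle. Myh3 (embryonic) and Myh8 (perinatal) belong to developing skeletal muscle, and Myh2, Myh1 and Myh4 to the fast IIA, IIX and IIB fibres of the adult. Myh7b is an ancient relative found at low level in heart and slow muscle, and Myh6, Myh7 and Myh7b each carry a miRNA in an intron.

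The tables place Myh3, Myh2, Myh1, Myh4 and Myh8 in that order on the plus strand of chromosome 10 (rn7), from 51770177 at the start of Myh3 to 51993103 at the end of Myh8. The 250 bases before the start of 4 of them are shown because they include the gene with the highest level of the cluster in YAP5SA (Myh3) and the 3 adult fast genes, which share a sequence. They come from the RefSeq promoter table of build GRCr8, which is not the build of the expression tables, and lie on the plus strand at chr10:52268935-52269184 (Myh3), chr10:52355489-52355738 (Myh2), chr10:52384662-52384911 (Myh1) and chr10:52421898-52422147 (Myh4). Capitals mark TATAAA in Myh3 and, in the other 3, a run of 20 bases that they have in common.
Myh3: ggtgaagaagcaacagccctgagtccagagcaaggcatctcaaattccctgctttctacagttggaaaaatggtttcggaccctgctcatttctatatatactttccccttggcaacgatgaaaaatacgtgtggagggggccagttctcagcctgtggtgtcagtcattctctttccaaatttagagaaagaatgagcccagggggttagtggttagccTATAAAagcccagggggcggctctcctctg
Myh2: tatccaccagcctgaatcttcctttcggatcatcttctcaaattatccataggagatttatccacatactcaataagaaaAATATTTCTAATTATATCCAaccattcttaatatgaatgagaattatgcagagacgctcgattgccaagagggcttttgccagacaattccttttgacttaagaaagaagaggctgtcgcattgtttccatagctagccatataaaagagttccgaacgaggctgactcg
Myh1: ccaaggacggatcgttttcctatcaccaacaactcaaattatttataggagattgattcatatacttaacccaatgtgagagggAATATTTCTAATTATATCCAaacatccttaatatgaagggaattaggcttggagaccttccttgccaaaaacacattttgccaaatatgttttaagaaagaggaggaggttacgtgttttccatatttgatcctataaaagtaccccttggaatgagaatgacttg
Myh4: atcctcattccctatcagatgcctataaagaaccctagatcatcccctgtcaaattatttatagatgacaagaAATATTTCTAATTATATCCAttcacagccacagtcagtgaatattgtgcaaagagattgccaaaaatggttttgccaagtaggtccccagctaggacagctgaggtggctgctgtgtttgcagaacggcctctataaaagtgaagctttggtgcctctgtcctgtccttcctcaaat

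The shared run, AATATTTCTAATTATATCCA, begins 170 bases before the start of Myh2, 166 before Myh1 and 177 before Myh4, and 3 of the 33469 promoter windows in the table hold it, these 3. The window of Myh8, at the other end of the cluster, does not contain it. TATAAA on the gene strand begins 30 bases before the start in Myh3 and Myh2, 33 before Myh1 and at 227 and 45 before Myh4, and 8.06% of windows hold this word. CATTCC, the core of the TEAD site, was found on either strand in the windows of Myh1 (17 bases before the start), Myh4 (245) and Myh6 (23), against 12.1% of all windows. CANNTG, the E-box of myogenic factors, was found in Myh3, Myh4, Myh6, Myh7 and Myh7b, and in 65.5% of all windows. The MEF2 motif was found in Myh1 and Myh4 (2.96% of windows) and the CArG box in Myh4 (1.5%). Such matches describe the letters of these windows only. No word of the 5 occurred in the window of Myh8.

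The 3 miRNAs carried in introns of the cardiac and ancient genes are shown because their seeds (bases 2 to 8, in capitals) relate the host genes to each other: miR-208a lies in Myh6, miR-208b in Myh7 and miR-499 in Myh7b. The mature sequences are those of RefSeq (GRCr8).
rno-miR-208a-3p: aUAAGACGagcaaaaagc
rno-miR-208b-3p: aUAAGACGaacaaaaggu
rno-miR-499-5p: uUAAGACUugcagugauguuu
The seeds of miR-208a and miR-208b are identical, and that of miR-499 is a close relative.

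The depth behind the values was similar in 3 libraries and lower in the other. The deposited per-base coverage corresponds to 4.97 to 5.1 gigabases of aligned sequence in 3 libraries and 4.02 in YAP5SA replicate 2. The mitochondrial share of TPM was 7.53% and 10.2% with YAP5SA, against 12.6% and 14.0% with YAP5SA-S94A. TPM counts transcripts per unit of length out of a fixed sum, so levels of different genes can be compared within a library. The cardiomyocyte label was checked against 8 defining genes, all of them present, among them Tnnt2, cardiac troponin T, at 5811 to 8190 TPM in the 4 libraries. Transcripts typical of other cells were also abundant, among them Col1a1, a fibroblast collagen, at 2135 to 3438 TPM and Lyz2, a macrophage lysozyme, at 428 to 714 TPM. The Yap1 row stood at 105 and 99.1 TPM in YAP5SA against 117 and 121 in YAP5SA-S94A. The labels do not give the species of the transgene, so it is not known whether its reads fall on this row. Ccn1, a YAP/TEAD target, stood at 522 and 438 against 39.9 and 36.1 TPM.

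All 5 genes of the chromosome 10 cluster were higher in both YAP5SA libraries than in both YAP5SA-S94A libraries, and Myh6, Myh7 and Myh7b were lower in both. Of the 13420 genes whose mean TPM reached 1, 34.5% had both YAP5SA libraries above both others and 33.8% had both below. Because the genes were chosen on this contrast, nothing is read from the count. The filter on low values was passed by 7 of the 8, Myh4 being the exception, and 4 of these passed it through the YAP5SA libraries alone.

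Myh3, the embryonic heavy chain (chromosome 10, 51770177 to 51793994), was measured at 159 and 211 TPM in YAP5SA replicates 1 and 2 and at 0.835 and 0.856 TPM in YAP5SA-S94A. The YAP5SA libraries are thus the high ones, they differ from each other by more than the other pair does, and the groups are far apart. The means were 185 ± 37.0 and 0.846 ± 0.0149 TPM (SD, n = 2 each), a 219-fold ratio of mean TPM and a difference of 6.64 in log2(TPM + 1), the scale of all differences given here. With YAP5SA its level ranked 982nd and 707th among all gene names, and with YAP5SA-S94A 13522nd and 13508th. The embryonic gene was thus among the more abundant transcripts in one form and below 1 TPM in the other. The per-base coverage was 321 and 317 in YAP5SA and 1.66 and 1.68 in YAP5SA-S94A, a mean depth above 1 read in every library.

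Myh8, the perinatal heavy chain (51963510 to 51993103), stood at 51.5 and 45.6 TPM in YAP5SA and at 0.0385 and 0.0682 TPM in YAP5SA-S94A. Both YAP5SA libraries are high and close to each other. The means were 48.5 ± 4.16 and 0.0533 ± 0.0210 TPM (SD, n = 2 each), a difference of 5.55 in log2(TPM + 1). The low pair had a coverage of 0.0770 and 0.134 per base, less than 1 read deep, so the 910-fold ratio of mean TPM has little precision. The embryonic and perinatal genes were not in a fixed proportion. Within a library Myh3 stood at 3.09 and 4.63 times the level of Myh8 in YAP5SA, and at 21.7 and 12.6 times in YAP5SA-S94A.

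The 3 adult fast genes lie between them. Myh2 (IIA; 51856738 to 51883236) stood at 20.2 and 20.6 TPM in YAP5SA, and was listed at 0 and at 0.111 TPM in YAP5SA-S94A replicates 1 and 2. Myh1 (IIX; 51885913 to 51909699) stood at 10.2 and 10.3 TPM against 0 and 0.0670. Both genes were thus plainly present in each YAP5SA library and at or near 0 in the others, with the replicates of YAP5SA almost equal. Myh4 (IIB; 51923149 to 51946297) stood at 0.215 and 0.155 TPM in YAP5SA, and both YAP5SA-S94A libraries list it at 0. Its coverage was 0.439 and 0.235 per base in YAP5SA, so the IIB gene stayed near the limit of these libraries in either form although it lies between genes that were well covered.

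Differences of the low genes depend on the pseudocount. The difference was 4.34 for Myh2 and 3.44 for Myh1 in log2(TPM + 1), and 7.14 and 6.32 with 0.1 added in place of 1, because values near 0 enter the mean. For Myh4 no fold is given. Within each YAP5SA library Myh2 stood at 1.97 and 2.00 times the level of Myh1, a nearly constant proportion. The adult fast genes are close paralogs in sequence, as are Myh3 and Myh8, and how reads that match more than 1 of them were divided is not given in the sources used here. The split among the 5 is therefore less certain than their sum, which was 241 and 288 TPM in YAP5SA and 0.874 and 1.10 TPM in YAP5SA-S94A.

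**Figure D1:**
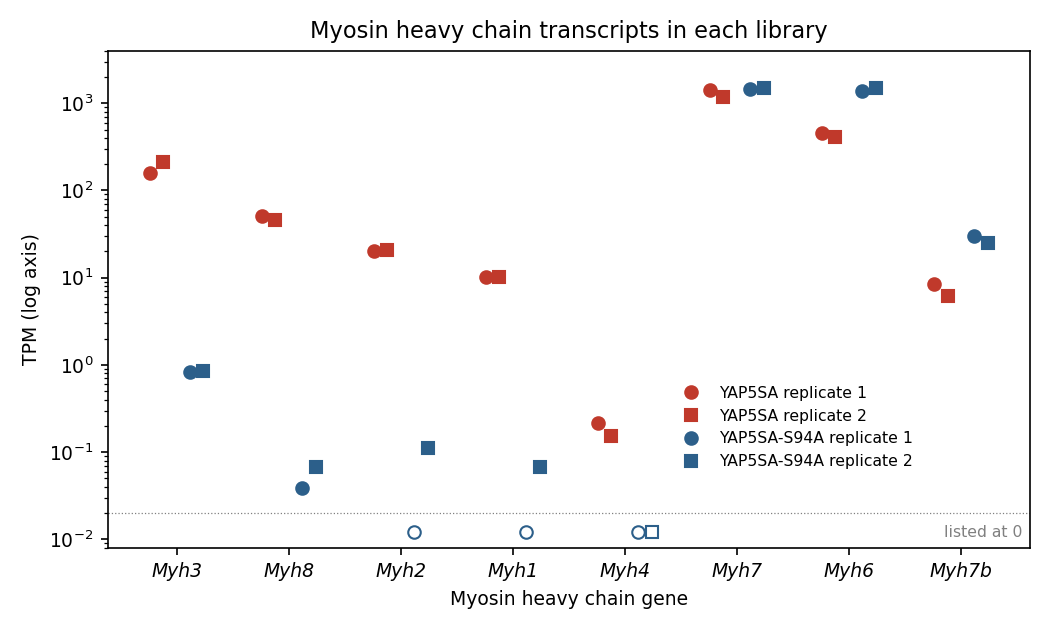
TPM of the 8 myosin heavy chain genes (log axis) in each of the 4 libraries, with 1 point per library, circles for replicate 1 and squares for replicate 2, and open symbols below the dotted line for values listed at 0. The red YAP5SA points of Myh3 (159 and 211 TPM), Myh8, Myh2 and Myh1 stand far above the blue YAP5SA-S94A points, those of Myh6 and Myh7b stand below them, and those of Myh7 lie close to them.

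Myh6, the alpha cardiac heavy chain (chromosome 15, 28418120 to 28442316, minus strand), stood at 458 and 413 TPM in YAP5SA and at 1388 and 1499 TPM in YAP5SA-S94A. Here the YAP5SA libraries are the low ones and the groups do not overlap. The means were 436 ± 31.7 and 1444 ± 78.4 TPM (SD, n = 2 each), a level 3.32-fold higher in YAP5SA-S94A and a difference of −1.73 in log2(TPM + 1). Myh6 ranked 321st and 351st among gene names in YAP5SA and 100th and 76th in YAP5SA-S94A. The alpha gene stayed among the abundant transcripts of the cells in both forms.

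Myh7, the beta cardiac heavy chain (28446550 to 28469888, minus strand), stood at 1414 and 1189 TPM in YAP5SA and at 1472 and 1495 TPM in YAP5SA-S94A. The YAP5SA libraries were both lower, but replicate 1 was closer to the YAP5SA-S94A libraries than to its own replicate. The means were 1302 ± 159 and 1483 ± 16.4 TPM (SD, n = 2 each), a ratio of 1.14 and a difference of −0.19. It came to −0.07 when YAP5SA replicate 2 was left out and to −0.32 when replicate 1 was. The beta gene was the highest of the 8 by mean TPM in either form, ranking 101st and 129th among gene names in YAP5SA and 88th and 78th in YAP5SA-S94A.

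The proportion of the cardiac isoforms therefore differed between the forms, mainly in Myh6. Within a library Myh6 stood at 0.324 and 0.347 of the level of Myh7 in YAP5SA and at 0.943 and 1.00 in YAP5SA-S94A. The alpha and beta genes were about equal in the form whose TEAD binding is disrupted, and beta was in excess in the other. Both ratios are taken within a library and do not depend on how libraries are scaled to each other.

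Myh7b (chromosome 3, 144076911 to 144122714, plus strand) stood at 8.49 and 6.25 TPM in YAP5SA and at 29.9 and 24.8 TPM in YAP5SA-S94A. The YAP5SA libraries are the low ones, without overlap. The means were 7.37 ± 1.58 and 27.3 ± 3.60 TPM (SD, n = 2 each), 3.71-fold higher in YAP5SA-S94A, with a difference of −1.77. Relative to Myh6, Myh7b stood at 0.0185 and 0.0151 in YAP5SA and 0.0215 and 0.0165 in YAP5SA-S94A, ranges that overlap. Relative to Myh7 it stood at 0.00600 and 0.00525 against 0.0203 and 0.0166, which do not. The level of Myh7b is less certain than those of the other genes: its coverage was only 3.92 and 2.06 per base against 13.0 and 11.2, low for its TPM. Its ends also overlap Gss by 1287 bases and Trpc4ap by 712 on the opposite strand, and whether counting used the strand is not given in the sources used here.

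Summed over the 8 genes, myosin heavy chain transcripts stood at 2122 and 1897 TPM in YAP5SA and at 2890 and 3020 TPM in YAP5SA-S94A, or 0.212% and 0.190% against 0.289% and 0.302% of all TPM. The total was thus lower in both YAP5SA libraries, and its composition differed. Myh7 made up 66.7% and 62.7% of the sum in YAP5SA against 50.9% and 49.5% in YAP5SA-S94A. Its share was higher in YAP5SA although its level was not. Myh6 made up 21.6% and 21.8% against 48.0% and 49.6%. Myh3 made up 7.49% and 11.1% against 0.0289% and 0.0284%.

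The smaller shares separated the groups as well. Myh8 held 2.43% and 2.40% in YAP5SA against 0.00133% and 0.00226%, Myh2 0.951% and 1.08% against 0 and 0.00367%, and Myh1 0.482% and 0.541% against 0 and 0.00222%. Myh4 held 0.0101% and 0.00818% in YAP5SA and 0 in the others. Myh7b held 0.400% and 0.329% against 1.03% and 0.821%, and from the coverage column in place of TPM its mean share was 0.0820% and 0.211%. The 5 chromosome 10 genes together accounted for 11.4% and 15.2% of the sum in YAP5SA against 0.0302% and 0.0365%, and Myh6 with Myh7 for 88.2% and 84.5% against 98.9% and 99.1%. The cardiac pair remained the bulk of the myosin heavy chain transcripts in both forms. In these bulk samples, fewer cells of a type and less RNA per cell cannot be told apart.

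**Figure D2:**
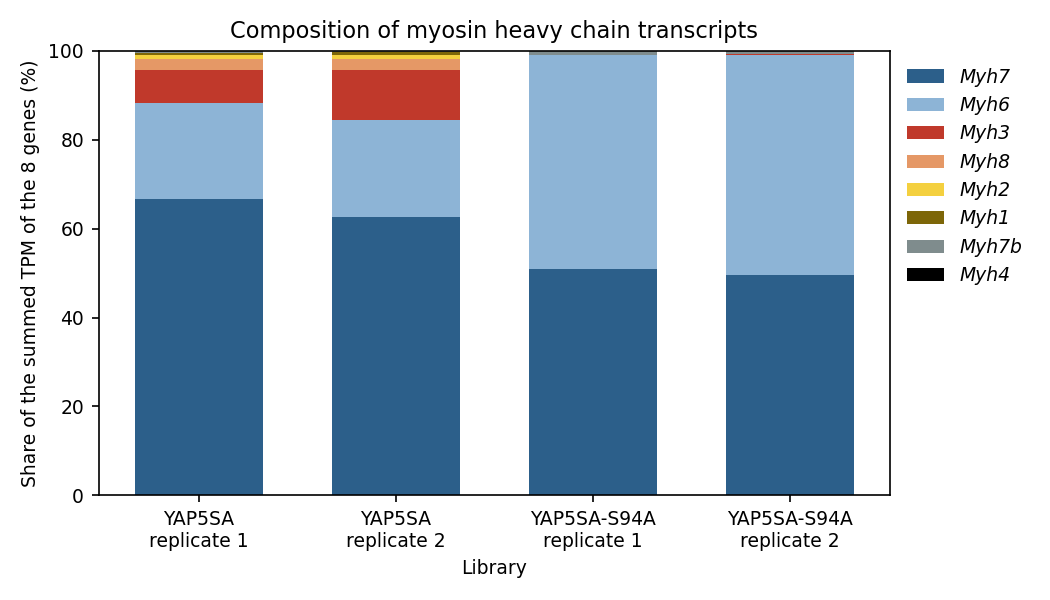
Share of the summed TPM of the 8 genes (%) held by each gene in each of the 4 libraries, as stacked bars from 0 to 100. Myh6 and Myh7 hold about equal parts in the YAP5SA-S94A libraries, and in the YAP5SA libraries Myh7 holds 66.7% and 62.7% and Myh3 7.49% and 11.1%.

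The order of the genes by mean TPM in YAP5SA was Myh7, Myh6, Myh3, Myh8, Myh2, Myh1, Myh7b and Myh4, and no pair of neighbours in this order overlapped between its libraries. In YAP5SA-S94A the order was Myh7, Myh6, Myh7b, Myh3, Myh2, Myh8, Myh1 and Myh4. There Myh7 and Myh6 overlapped, and so did each neighbouring pair from Myh2 to Myh4. Only Myh7b and Myh3 stood clear of their neighbours. Myh7b thus was the third gene in YAP5SA-S94A and the seventh in YAP5SA, with Myh3, Myh8, Myh2 and Myh1 above it.

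The cluster on chromosome 10 spans 222.9 kb. Myh3 is 62.7 kb from Myh2, and the others are close together, with gaps of 2.68 kb from Myh2 to Myh1, 13.4 kb to Myh4 and 17.2 kb to Myh8. Levels in YAP5SA did not follow position: the ends of the cluster, Myh3 and Myh8, were the highest, and Myh4, beside Myh8, the lowest. Myh13, the extraocular heavy chain 19.7 kb beyond Myh8, stood at 0.127 and 0.187 TPM in YAP5SA and 0 in the others, a level too low to be tested. On the other side Sco1, a copper chaperone of cytochrome oxidase 12.93 kb before Myh3, rose from a mean of 21.8 to 39.0 TPM (log2 difference 0.80, limma adjusted p = 0.00505). Adprm (33.3 against 27.8 TPM, limma adjusted p = 0.296), Tmem220 (6.87 against 4.50, 0.0776) and, on the Myh8 side, Gas7 (16.5 against 21.0, 0.13) were not called. Without YAP5SA replicate 1, Adprm was called higher (limma adjusted p = 0.0256) and Gas7 lower (0.0372). None of the tested neighbours differed by as much as 1 on the log2 scale. The differences of Myh1, Myh2, Myh8 and Myh3, chosen on this contrast and not tested, ran from 3.44 to 6.64.

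**Figure D3:**
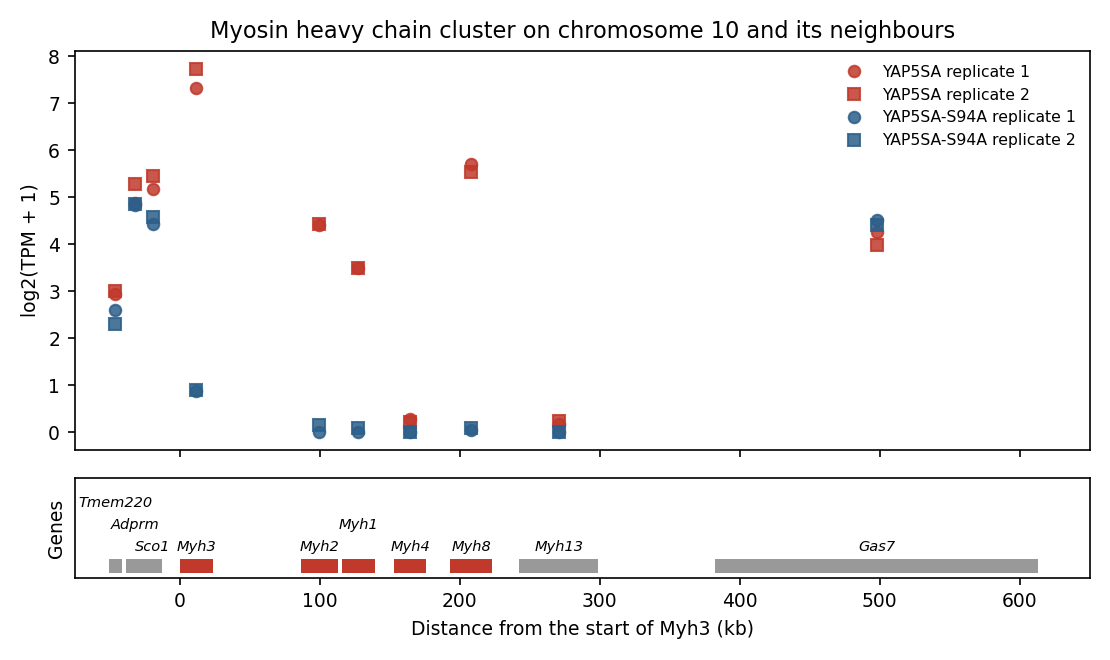
Levels in log2(TPM + 1) of the chromosome 10 genes in each of the 4 libraries (upper panel, 1 point per library at the middle of the gene) above a map of the genes (lower panel, red for the myosin heavy chains described, grey for neighbours), against distance from the start of Myh3 in kb. Red YAP5SA points separate from blue YAP5SA-S94A points at Myh3, Myh2, Myh1 and Myh8, while at Myh4, Myh13 and the flanking genes they lie closer, with Sco1, 39.0 against 21.8 TPM on average, the flanking gene that was called.

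Myh6 and Myh7 are 4.23 kb apart on chromosome 15. Of the named genes around them, Efs, Ngdn, Zfhx2 and Thtpa were not called (limma adjusted p = 0.366, 0.151, 0.907 and 0.258), and Cmtm5 and Il25 were too low to be tested. Efs was called higher without YAP5SA replicate 2 (limma adjusted p = 0.0204). Of the entries within the pair, LOC108352922 and LOC108352923 lie opposite to Myh6, and both fell. LOC108352922 stood at a mean of 2.65 against 8.34 TPM (log2 difference −1.39, limma adjusted p = 0.0053) and LOC108352923 at 4.72 against 16.5 (−1.61, 3.81e-04). As a percentage of Myh6 they stood at 0.747 and 0.455 against 0.589 and 0.567, and at 1.01 and 1.17 against 1.20 and 1.09, ranges that overlap between the forms. Reads of Myh6 and of these entries cannot be told apart without strand.

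The miRNA entries of the 3 hosts were low. The libraries were made from polyA RNA, so the entries do not measure the mature miRNAs shown above. The longer of the entries of Mir208a, in Myh6, was listed at 0 in both YAP5SA libraries and at 0.971 and 0.919 TPM in YAP5SA-S94A. That of Mir208b, in Myh7, stood at 1.85 and 1.87 against 1.49 and 1.56 TPM. Summed over its entries, Mir208b was not called (limma adjusted p = 0.597). Mir499a, in Myh7b, was listed at 0 in all 4 libraries. Around Myh7b, Procr, the protein C receptor gene, rose by 0.79 on the log2 scale (limma adjusted p = 0.0205). It was not called when YAP5SA-S94A replicate 1 (0.15) or 2 (0.0503) was left out. Ncoa6, a nuclear receptor coactivator gene, fell by 0.43 (limma adjusted p = 0.04) and likewise was not called in the absence of YAP5SA-S94A replicate 1 (0.252) or 2 (0.306). Gss, Trpc4ap, Ggt7, Acss2 and Edem2 were not called. With YAP5SA replicate 1 left out Trpc4ap passed as lower (limma adjusted p = 0.0148), and with replicate 2 left out Edem2 passed as higher (0.0348).

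The other heavy chains of the family were compared in the same way, and for these limma was used. The gene lists here and below were chosen with earlier results of these data known, so their counts are descriptions. Over all tested genes, 17.4% were called higher and 15.5% lower in YAP5SA at a limma adjusted p under 0.05, the shares to set beside each count. Of 4 tested non-sarcomeric and smooth muscle heavy chains 2 rose and 2 were not called, with a median log2 difference of 0.31 beside 0.000148 over all tested genes. Myh9, a non-muscle heavy chain of stress fibres, stood at 315 and 290 TPM in YAP5SA against 143 and 148 (log2 difference 1.05, limma adjusted p = 2.53e-04). Its level in YAP5SA lay between those of Myh6 and Myh3. Myh10, another non-muscle heavy chain, stood at 65.2 and 67.4 against 48.2 and 44.7 TPM (0.50, limma adjusted p = 0.0107). With YAP5SA-S94A replicate 2 left out it was not called (0.134). Myh10 overlaps Ndel1, a more abundant gene (a mean of 76.4 against 56.4 TPM over the libraries), by 19547 bases on the opposite strand. Myh11, the smooth muscle heavy chain, stood at 15.0 and 14.9 against 13.5 and 13.9 TPM, a difference that did not pass (limma adjusted p = 0.547). Myh14 stood at 34.0 and 25.9 against 43.5 and 39.9 TPM (limma adjusted p = 0.0512). It was called lower in 6 other settings, with limma adjusted p from 0.0102 to 0.0449. Myh15 was listed at 0 in all 4 libraries.

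Among partners of the heavy chains in the thick filament and M-band, 10 of 17 tested genes fell and 1 rose, with a median log2 difference of −0.70. Mybpc2, the fast skeletal myosin-binding protein C, rose, from 15.3 and 13.7 to 92.5 and 75.9 TPM (log2 difference 2.45, limma adjusted p = 4.3e-05). The M-band genes Myom2 and Myom1, which crosslink thick filaments, fell by 2.04 and 1.08 (limma adjusted p = 5.17e-05 and 2.34e-04). The difference of Myom2, from 385 and 391 to 105 and 83.5 TPM, exceeded that of Myh6. Without either of the YAP5SA libraries the number that rose was 2. Mybpc2 overlaps a less abundant gene on the opposite strand.

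Of 13 tested genes that fold, assemble or degrade myosin, 5 fell, 1 rose and 7 were not called, with a median of −0.24. Smyd1, a methyltransferase that works with the myosin chaperones, fell by 1.35 (limma adjusted p = 2.63e-04). Fbxo32 (atrogin-1) and Trim63 (MuRF1), ubiquitin ligases of muscle protein, fell (log2 differences −2.28 and −1.46, limma adjusted p = 6.08e-05 and 5.65e-05). Trim54, a relative of Trim63, fell too (−2.19, limma adjusted p = 1.99e-04). Fbxo32 stood at 51.2 and 38.4 TPM in YAP5SA against 211 and 227, and Trim54 at 89.0 and 58.2 against 335 and 331.

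Of 41 tested regulators of myosin heavy chain genes 6 rose and 11 fell, with a median of −0.22. Tead4, a TEAD factor, stood at 17.7 and 14.8 TPM in YAP5SA against 2.24 and 1.70 (log2 difference 2.54, limma adjusted p = 1.38e-04), and Vgll3, a cofactor of the TEAD factors, at 51.6 and 58.4 against 15.5 and 14.7 (1.80, 8.97e-05). Rxrg, a nuclear receptor that pairs with thyroid hormone receptors, stood at 4.55 and 3.998 TPM against 54.9 and 49.2 (−3.33, limma adjusted p = 2.04e-05). Hdac9, a histone deacetylase that restrains MEF2, fell by 2.07 (limma adjusted p = 2.85e-04). The number that rose was 10 without YAP5SA replicate 2, and the number that fell was 18 without YAP5SA replicate 1.

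Skeletal muscle genes outside the heavy chain family split. Of the 26 listed, 13 were high enough to be tested, of which 5 rose and 4 fell, with a median of 0.32. The others were too low to be tested, and the median leaves them out. Among them Ryr1 stood at a mean of 0.135 TPM in YAP5SA against 0.143, Tnni2 at 0.569 against 1.06 and Neb at 0.0815 against 0.0681. Mybpc1 and Cacng1 were listed at 0 in every library. Cacna1s, the voltage sensor of skeletal muscle, stood at 56.1 and 47.3 TPM in YAP5SA against 1.57 and 2.15 (log2 difference 4.21, limma adjusted p = 2.02e-05). Atp2a1, the calcium pump of fast fibres, stood at 13.4 and 10.3 against 0.579 and 1.32 TPM (2.74, limma adjusted p = 3.52e-04). Atp2a1 overlaps Rabep2, a more abundant gene, by 46 bases on the opposite strand. Mybpc2, counted in this list too, is given above. Ckm, muscle creatine kinase, fell from 1065 and 982 to 281 and 214 TPM (−2.06, limma adjusted p = 7.08e-05). The difference of Cacna1s lay between those of Myh1 and Myh2.

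Of 20 genes of the cardiac thin filament and Z-disc, the structures opposite the thick filament, 9 rose and 4 fell. The median of the 20 was 0.21. Over all tested genes 17.4% rose and 15.5% fell. Tnni3, cardiac troponin I, fell from 2614 and 2401 to 912 and 801 TPM (log2 difference −1.55, limma adjusted p = 6.84e-05), a difference near that of Myh6. Nebl, a Z-disc protein of the heart, fell by 1.20 (limma adjusted p = 1.99e-04). Lmod3, which nucleates actin filaments in skeletal muscle, rose by 2.10, and the Z-disc gene Synpo2l by 1.32 (limma adjusted p = 6.6e-04 and 1.17e-04). Whether the lists differ from each other was not tested.

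**Figure D4:**
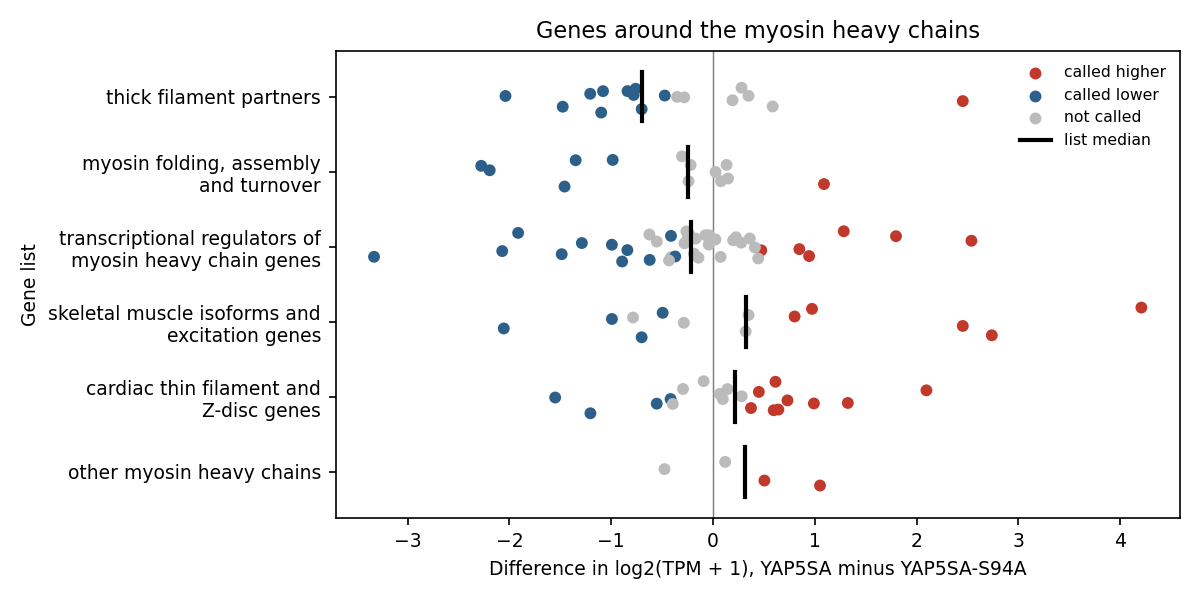
Difference in log2(TPM + 1), YAP5SA minus YAP5SA-S94A, of each tested gene of the 6 lists of genes around the myosin heavy chains (1 point per gene, red for called higher, blue for called lower, grey for not called, black bar for the list median; vertical jitter only separates points). The medians run from −0.70 for the thick filament partners to 0.32 for the skeletal muscle isoforms.

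Markers of the cell types that such cultures can hold were read beside the heavy chains. Of 8 markers of the skeletal muscle lineage, Myod1, Myf5, Pax7, Mymk and Mymx were listed at 0 in all 4 libraries. Their summed level was 1.38 and 1.16 TPM in YAP5SA against 0 and 0.0336, most of it from Myf6, at 0.830 and 1.12 against 0 and 0 TPM. Myog stood at 0.547 TPM in YAP5SA replicate 1 and at 0 in the other 3 libraries. For comparison, the chromosome 10 heavy chains summed to 241 and 288 TPM with YAP5SA and to 0.874 and 1.10 with YAP5SA-S94A. Myf6, though low, was likewise higher in both YAP5SA libraries. Whether cells of the skeletal lineage had a part in these heavy chain levels was not tested.

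Most of the listed markers of the heart muscle cell fell. Of 8 cardiomyocyte markers 6 fell and 2 were not called. Of the latter, Actn2 stood higher in both YAP5SA libraries (851 and 737 against 651 and 652 TPM, limma adjusted p = 0.067). The sum of the 8 was 9136 and 9227 TPM in YAP5SA against 14490 and 14430. Outside the 8, Actc1 (a mean of 6698 against 4434 TPM) and Tnnc1 (3565 against 2753) rose (limma adjusted p = 0.00302 and 0.0164). They are among the 9 thin filament and Z-disc genes that rose, beside 4 that fell. Actc1 overlaps a less abundant entry on the opposite strand. The sum of 4 ventricular markers was 14280 and 14350 against 18290 and 18180 TPM (2 fell and 2 were not called, of which Hey2 stood at a mean of 15.5 against 14.0), and that of 5 atrial markers 107 and 107 against 220 and 208 (2 of 4 tested fell). The lower Myh6 thus stood beside lower levels of most listed cardiomyocyte markers, and their part in it was not tested.

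Of 5 smooth muscle markers 3 rose (Cnn1, Acta2 and Tagln) and 2 were not called (Myh11 and Smtn, limma adjusted p = 0.547 and 0.464). The sum of the 5 was 6699 and 6475 against 1201 and 1151 TPM, of which Acta2 held a mean of 4877 against 449. Of 8 fibroblast markers 2 fell and 6 were not called, with sums of 8527 and 6748 against 7243 and 6888 TPM. Of 4 epicardial markers 2 rose (Upk3b and Msln), with sums of 49.4 and 42.8 against 33.0 and 29.0 TPM. Upk3b stood at a mean of 20.3 against 0.577 TPM. Wt1 (2.45 against 2.97) and Upk1b (19.5 against 25.5) stood lower in both YAP5SA libraries and were not called. The sum of 5 endothelial markers was 10.4 and 9.79 against 29.0 and 27.6 TPM. Of the 4 tested, Kdr fell (a mean of 3.65 against 20.6 TPM) and Pecam1, Cdh5 and Tie1 were not called. Of 4 immune markers 1 rose and 2 fell, with sums of 533 and 516 against 808 and 808 TPM. The sums are mostly Lyz2 (a mean of 433 against 712 TPM), which fell as Cd68 did. Csf1r rose, from a mean of 13.8 to 37.8 TPM. The sum of 3 Schwann cell markers was 3.38 and 1.69 against 4.29 and 4.89 TPM, and the 1 tested was not called. The part of these cell types in the levels of the heavy chains was not tested.

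Genes whose pattern over the 4 libraries was most like that of a heavy chain were found by the root mean square difference of centred log2(TPM + 1) values, a description over 4 libraries. For Myh3 the nearest were Lce1m (0.53), Myh8 (0.58) and Mns1 (0.71), and for Myh8 Mns1 (0.25), Cd2 (0.30) and Lce1m (0.32). Lce1m and Mns1 stand in both sets. With 2 libraries per form, such a profile holds mostly the difference between the forms, on which the heavy chains were chosen. Genes with a difference of like size, such as Lce1m (5.72), Mns1 (5.22) and Myh8 (5.55), come out near each other for that reason. Nothing further is read from their likeness. Mns1 overlaps Tex9 on the opposite strand. For Myh6 the nearest were Plin5 (0.02), a lipid droplet protein, Tmem38a (0.04), a potassium channel of the sarcoplasmic reticulum, and Cidea (0.04), another lipid droplet protein. Plin5 stood at only 0.509 and 0.366 TPM in YAP5SA against 3.63 and 4.14, an 8.89-fold ratio of means beside 3.32 for Myh6, so its likeness holds on the log2(TPM + 1) scale and not in the ratio. Tmem38a stood at 63.0 and 58.3 TPM in YAP5SA against 203 and 206. For Myh7 the nearest were Rarres1, Dgcr2 and Mtg2, each at 0.01, and these differed little between the forms, with differences of −0.19, −0.21 and −0.19.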

How the data were processed

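The 4 RNA libraries (2 YAP5SA, 2 YAP5SA-S94A) came as 1 table each of 40903 entries. Per the submitters' processing notes, the tools included HISAT2 2.2.1 and StringTie 2.2.1, with fastp and R 4.3.1, and the build was rn7. No settings are given. The TPM values and the FPKM values were computed by the authors. The coverage column, per the file headers, is read coverage per base and is not scaled for depth. Per the labels, libraries were directional. No read counts were used here, and intervals that need them are not given.

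Entries that share a name were summed (39784 names). The 13420 genes whose mean TPM reached 1 entered limma (3.58.1, under R 4.3.3) as log2(TPM + 1), with the variance prior following intensity on 2 residual degrees of freedom and a prior of 5.09, and were called under a Benjamini-Hochberg adjusted p of 0.05. "Rose" and "fell" mean called. The heavy chains and the gene lists were chosen with earlier results of these data known. The genes named are the 8 heavy chains, 4 called genes of smallest p per list, all other heavy chains, the locus neighbours and the 3 nearest profiles of Myh3, Myh8, Myh6 and Myh7. Marker genes, Ccn1, Actc1 and Tnnc1 are named as checks. Not every gene covered by this rule is reported here. Of the listed genes Myl6b and Myh16 were not matched. All 8 heavy chains matched a window of the RefSeq promoter table. Protein identity, which had been planned, is not given. The method was tested on simulated data with 200 changed genes among 13420, drawn from those with a mean log2(TPM + 1) above 2. It recovered 40% of the changed genes with a log2 difference of 1 and 84% of those with 2, and 4 of 128 calls were false. A gene that was not called can therefore still differ. In the data a larger share of genes was called (17.4% higher and 15.5% lower), and the p cutoff depends on that share. The recovered shares of the simulation thus do not give those of the data. The alternatives were other pseudocounts, filters, scalings and variance models, FPKM, coverage, other denominators of the share, the replicate block and each library left out. Figures were drawn with matplotlib 3.10.9, and tables were made with numpy 2.4.6 and pandas 2.3.3 under Python 3.11.15.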

Additional observations from a re-analysis of the deposited data

How the results depend on the processing

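None of the 7 heavy chains with a log2 difference changed direction under any alternative tried for it. With n = 2 per form the spread rests on limma's pooling over genes, and leaving a library out leaves 1 in its group, assumed to vary like the other. Levels under 1 TPM are limited by depth. In the check of the pairing, the deviations of the replicate 1 libraries from their group means correlated at 0.101 over genes. The labels do not say that a number marks a shared batch, and the library names carry other numbers than the titles, so whether the libraries share more than a number is not known. With the replicate block 2726 genes were called higher (2337 without it) and 2593 lower (2083), 2 thick filament partners higher (1) and 1 other heavy chain lower (0). That lower count was also 1 with quantile normalization, with a mean TPM of at least 5, without the mitochondrial chromosome and with median-of-ratios scaling.

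Leaving out each library in turn, the genes called lower numbered 1312 to 2739 (1312 without YAP5SA-S94A replicate 1, 1314 without replicate 2), thick filament partners higher 1 to 2, regulators higher 5 to 10 and lower 9 to 18, and other heavy chains higher 1 to 2 and lower 0 to 1.

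With a pseudocount of 0.1 the log2 differences were 6.32 (Myh1), 7.14 (Myh2), 7.60 (Myh3) and 8.31 (Myh8). With FPKM they were 2.30, 3.13, 5.76 and 4.28. With the mitochondrial chromosome left out they were 3.56 for Myh1 and 4.46 for Myh2, and with quantile normalization 3.33 for Myh1 and 5.40 for Myh8. The first 2 of these settings move low genes by construction, since the pseudocount weighs more or less against their values.

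With all 14 Myh genes as the denominator, the mean shares in YAP5SA were 0.424% (Myh1), 0.844% (Myh2), 0.00760% (Myh4), 18.0% (Myh6), 53.6% (Myh7), 0.302% (Myh7b) and 2.00% (Myh8), and in YAP5SA-S94A 0.0264% (Myh3), 45.1% (Myh6) and 46.3% (Myh7). From the coverage column they were 0.0820% (Myh7b) and 2.44% (Myh8) in YAP5SA and 0.0291% (Myh3) and 0.211% (Myh7b) in YAP5SA-S94A. Of 527 recomputed values of the 41 other named genes, 508 kept their side of the threshold, 8 lost a call and 11 gained one. A change of direction was counted only where the gene was called in either fit, and 0 were found. Genes not called in either fit can have changed sign.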
